A study of Mus musculus with 8 samples.

Results

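Transcripts of 44 genes that build the contractile apparatus of fast skeletal muscle, or that are shared by all its fibres, were examined in Klotho-deficient mice. The genes were taken as a list of symbols covering actin, tropomyosin, the fast troponins, the fast myosin light chains, myosin-binding proteins, titin and the M-band, the Z-disc, filament end proteins, myosin chaperones and the sarcomeric creatine kinases. All 44 symbols were found once each among the 12551 genes counted. RNA was sequenced from whole tibialis anterior (TA), a fast-twitch muscle of the lower leg, of male littermates aged 7 weeks: 4 wild-type mice (Klotho wt/wt, WT) and 4 mice homozygous for the Klotho null allele (Klotho null/null, labelled Kl knockout, KL-/-), with 100 ng of RNA per library. The mice came from heterozygous breeders on a mixed background. The null allele is present in every tissue from conception, so an effect of Klotho loss within muscle and an effect of the systemic disease of these mice cannot be told apart. The question put to these genes was whether the sarcomere transcripts of a muscle that lacks Klotho differ from those of WT muscle, and in which part of the sarcomere.

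A sarcomere is the repeating unit between neighbouring Z-discs. Thin filaments of actin, tropomyosin and troponin are anchored in the Z-disc by alpha-actinin and are capped at their free ends, thick filaments of myosin are tied together at the M-band, and titin spans the distance from Z-disc to M-band. Calcium binding to troponin moves tropomyosin and lets myosin heads pull on actin. Many of these parts exist as products of related genes with different distribution between fast, slow, developing and cardiac fibres, and the TA of the mouse is built mainly of fast fibres.

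Counts on genes summed to between 20860262 and 26501093 per WT library and between 22061526 and 29273758 per KL-/- library. A floor of 3 counts therefore stood at 0.102 to 0.144 CPM (counts scaled to library size), far below every one of the 44 genes, and it covers counting error only. KL-/- replicate 3 carries a different batch date from the other 7 libraries, so this batch and this mouse cannot be told apart. *Kl* itself is not among the counted genes, so in these counts the genotypes rest on the labels. The paper typed its mice by PCR and reports no detectable *Kl* mRNA or Klotho protein in KL-/- muscle. The 8 libraries are separate mice, no pair of libraries was a duplicate, and the skeletal muscle genes *Acta1*, *Ckm* and *Tnnt3* ranked 1, 2 and 3 of all genes per kilobase. In whole muscle, fewer cells of a type and less RNA per cell cannot be told apart.

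The sequences of the actin pair show how close related sarcomere genes can be. Of the 2 genes, *Actc1*, cardiac alpha-actin, had the widest fold range between mice of the 44 genes. *Acta1*, skeletal alpha-actin, was the most abundant gene per kilobase. The first 60 coding bases (GENCODE M21, GRCm38) are given 5′ to 3′, with capitals at the 9 positions where the genes differ.
Acta1: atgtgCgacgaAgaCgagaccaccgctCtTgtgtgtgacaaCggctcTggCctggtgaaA
Actc1: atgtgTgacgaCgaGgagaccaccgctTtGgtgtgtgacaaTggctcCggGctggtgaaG
Over the whole coding sequence of 1131 bases, 976 bases were identical (86.3%), and the longest run without a difference was 29 bases. The alpha-actinin genes *Actn2* and *Actn3* were 75.7% identical over 2677 aligned coding bases, with a longest identical run of 51 bases.

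The promoters of the same actin pair and of *Myom1*, an M-band gene that differed between genotypes, share a CArG box, the motif bound by serum response factor. The 250 bases before each transcription start are from RefSeq (GRCm38.p6) on the strand of the gene, with capitals marking a CArG box and, in *Acta1*, also the E-box CAGCTG and a TATAAA motif near the start.
Acta1 (chr8:123894776-123895025, minus strand): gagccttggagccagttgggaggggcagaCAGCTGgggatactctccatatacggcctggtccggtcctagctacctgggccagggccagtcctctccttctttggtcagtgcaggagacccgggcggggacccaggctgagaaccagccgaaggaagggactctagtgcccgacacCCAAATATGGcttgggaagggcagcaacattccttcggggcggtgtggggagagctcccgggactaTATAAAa
Actc1 (chr2:114052876-114053125, minus strand): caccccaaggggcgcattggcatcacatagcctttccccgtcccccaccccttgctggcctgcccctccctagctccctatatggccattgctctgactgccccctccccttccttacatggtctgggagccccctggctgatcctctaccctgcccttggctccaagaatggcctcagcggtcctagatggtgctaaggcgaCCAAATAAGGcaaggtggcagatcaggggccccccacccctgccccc
Myom1 (chr17:71019307-71019556, plus strand): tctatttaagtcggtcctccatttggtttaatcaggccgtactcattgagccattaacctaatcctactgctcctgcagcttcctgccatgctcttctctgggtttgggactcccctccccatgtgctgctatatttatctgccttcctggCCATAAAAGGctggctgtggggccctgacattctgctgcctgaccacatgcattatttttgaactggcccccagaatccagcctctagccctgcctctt
The CArG box lay 73 to 64 bases before the start in *Acta1*, 47 to 38 bases before it in *Actc1* and 99 to 90 bases before it in *Myom1*. A promoter window was at hand for 32 of the 44 genes and for 9564 genes of the table, and both strands were searched. A CArG box was found in 4 of the 32 windows (12.5%; the fourth is *Ldb3*), against 1.42% of all windows. The MEF2 motif was found in 3 windows (9.38%, against 2.33%), the E-box CAGCTG in 11 (34.4%, against 14.6%) and TATAAA in 5 (15.6%, against 8.09%), with overlaps between motifs counted under each. These matches describe letters only, and binding was not measured.

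Of the 44 sarcomere genes, 5 were higher and 1 was lower in KL-/- muscle at an FDR under 0.05 (edgeR's quasi-likelihood test with Benjamini-Hochberg adjustment over all genes). These 6 genes are 13.6% of the 44, and 14.0% of all genes tested passed, so the share that differed was close to that of the whole table. By direction, 11.4% of the sarcomere genes were higher, against 7.35% of all genes, and 2.27% were lower, against 6.67%. The higher genes were *Actn3*, *Myom1*, *Tcap*, *Myom2* and *Capzb*, and the lower gene was *Lmod3*. The differences were modest: the median log2 fold change (KL-/- over WT) of the 44 genes was 0.11, from −0.44 to 0.98, with a median standard error of 0.12, and 34 of 44 values were positive with TMM scaling but 21 of 44, with a median of −0.0053, when libraries were scaled by their totals alone. That change of scaling moved the median of all genes by a like amount, from −0.016 to −0.13.

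The 4 KL-/- mice lay above all 4 WT mice in 11 of the 44 genes and below them in 2. Together these are 29.5% of the list, where 19.7% of all genes showed no overlap. In the upward direction the share was 25.0% against 10.2%, and in the downward direction it was 4.55% against 9.47%. In the other 31 genes the genotypes overlapped. These comparisons used TMM-scaled CPM, and the TMM factors were 1.02 to 1.05 in WT and 0.950 to 0.980 in KL-/- libraries. Of the 11 genes, *Ckm*, *Tnni2*, *Neb*, *Mybpc2*, *Myoz1* and *Capzb* overlapped between genotypes as shares of library totals. The percentages above were not recounted for all genes at that scaling. At an unadjusted p under 0.05, 14 of the 44 genes passed, as did 4031 of all 12551 genes (edgeR).

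**Figure D1:**
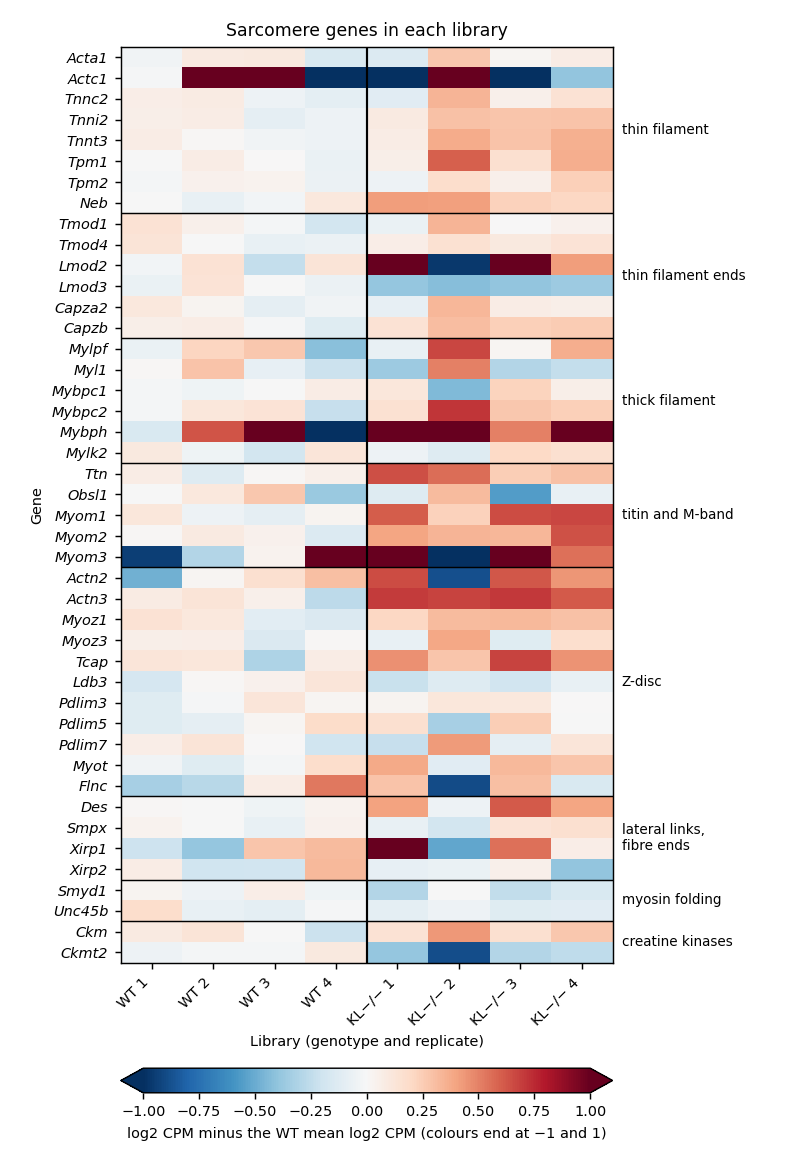
Each row is a sarcomere gene and each column a library, grouped by part of the sarcomere, and colour gives log2 CPM minus the WT mean of that gene, with red above and blue below it. *Actn3*, *Myom1* and *Myom2* are red in all 4 KL-/- columns and *Lmod3* is blue in all 4, while KL-/- replicate 2 goes against its group in *Actn2*, *Lmod2* and *Myom3*.

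Sarcomere transcripts made up a large part of every library. The 44 genes took 18.8% ± 0.772 of gene counts in WT mice against 20.1% ± 1.36 in KL-/- mice (SD, n = 4), and the ranges of 17.8% to 19.6% and 19.1% to 22.0% overlapped. The difference of 1.26 percentage points was 0.616 without KL-/- replicate 2. Without *Acta1* and *Ckm*, the remaining 42 genes took 13.6% ± 0.366 in WT and 14.8% ± 0.858 in KL-/-, with every KL-/- library above every WT library. As CPM per kilobase of counted exon (RPKM, mean of 8 libraries), the order was *Acta1* at 20003, *Ckm* (muscle creatine kinase) at 15117, *Tnnt3* (fast troponin T) at 13977, *Mylpf* (fast regulatory light chain) at 12613, *Tnni2* (fast troponin I) at 10313, *Tnnc2* (fast troponin C) at 9580, *Myl1* (fast essential light chain) at 8583, *Tpm1* (alpha-tropomyosin) at 4788, *Tcap* (telethonin) at 3116 and *Actn3* at 2849. At the other end stood *Myom3* at 8.42 and *Obsl1* at 18.4, which, like every gene named below as chosen for its values, fall outside the naming rule. Of the 10 most abundant genes, 2 were higher in KL-/- muscle (*Actn3* and *Tcap*) and 8 did not pass. The share that was higher was 20%, against 7.35% of all genes.

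Among the titin and M-band genes, 2 of 5 were higher (40.0%, against 7.35% of all genes), none was lower and the median log2 fold change was 0.44. *Myom1* (chromosome 17, 71019557 to 71126856 of mm10) encodes myomesin, which cross-links thick filaments. It was at 1798, 1610, 1564 and 1695 CPM in WT replicates 1 to 4 and at 2525, 1953, 2613 and 2640 CPM in KL-/-. All KL-/- values lay above all WT values, and replicate 2 was the lowest of them. The log2 fold change was 0.55 (standard error, SE, 0.11, FDR = 0.0140, edgeR), or 46.0% more transcript. *Myom2* (chromosome 8, 15057653 to 15133419), the M-protein of fast fibres, was at 1830, 1932, 1869 and 1655 CPM in WT and at 2388, 2305, 2283 and 2825 CPM in KL-/-. The genotypes did not overlap, and the log2 fold change was 0.43 (SE 0.096, FDR = 0.0212, edgeR). *Myom2* did not pass without WT replicate 3 (edgeR FDR = 0.0532) or without KL-/- replicate 4 (edgeR FDR = 0.0536). *Ttn*, named here after its values were seen, encodes titin and was at 10596, 9229, 10151 and 10447 CPM in WT and at 15775, 14851, 11974 and 12365 CPM in KL-/-. Its values did not overlap either, but at a log2 fold change of 0.44 (SE 0.14, edgeR FDR = 0.0635) it did not pass. With a correction for gene length the log2 fold change of *Ttn* was 0.26 (edgeR FDR = 0.137). It passed in 4 of the 10 alternative fits with all libraries. The 2 other genes of the group, *Obsl1* and *Myom3*, had log2 fold changes of −0.097 and 0.47 with overlapping genotypes.

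At the Z-disc, 2 of 11 genes were higher (18.2%, against 7.35% of all genes), none was lower and the median log2 fold change was 0.10. *Actn3* (chromosome 19, 4861216 to 4877909) encodes alpha-actinin-3, the actin cross-linker of fast glycolytic fibres. It was at 6682, 6926, 6558 and 5274 CPM in WT and at 10289, 10097, 10324 and 9661 CPM in KL-/-. The 4 KL-/- mice stood close together and well above every WT mouse. Its log2 fold change of 0.67 (SE 0.12, FDR = 0.0103, edgeR), or 58.7% more transcript, was the highest among the 6 genes that passed, and it passed in each of the 8 fits without 1 library, with log2 fold changes from 0.59 to 0.71. *Tcap* (chromosome 11, 98383811 to 98384953) encodes telethonin, which joins the ends of titin in the Z-disc. It was at 2685, 2672, 1991 and 2597 CPM in WT and at 3387, 2996, 3934 and 3371 CPM in KL-/-, again without overlap. The log2 fold change was 0.46 (SE 0.13, FDR = 0.0399, edgeR), and *Tcap* did not pass in 7 of the 8 fits without 1 library.

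The other 9 Z-disc genes did not pass. *Myoz1*, which encodes a calcineurin-binding Z-disc protein of fast fibres, averaged 1777 ± 182 CPM in WT against 2159 ± 79.3 CPM in KL-/- (SD, n = 4). Every KL-/- value lay above every WT value, with a log2 fold change of 0.28 (SE 0.090, FDR = 0.0665, edgeR). Its relative *Myoz3* was at 222 ± 14.7 and 238 ± 39.4 CPM and overlapped between genotypes. *Actn2*, the alpha-actinin found in all fibres, was at 1160, 1645, 1814 and 2001 CPM in WT and at 2554, 882, 2501 and 2201 CPM in KL-/-. KL-/- replicates 1, 3 and 4 were the highest of the 8 libraries and replicate 2 the lowest, so the log2 fold change of 0.30 had an SE of 0.30 (FDR = 0.527, edgeR). Without KL-/- replicate 2 it was 0.56 and *Actn2* passed (edgeR FDR = 0.0449). It was 0.16 without WT replicate 1, 0.18 without KL-/- replicate 1 and 0.18 without KL-/- replicate 3. The 6 remaining genes, *Ldb3*, *Pdlim3*, *Pdlim5*, *Pdlim7*, *Myot* and *Flnc*, encode Z-disc adaptor and actin-binding proteins, overlapped between genotypes and had log2 fold changes from −0.16 to 0.22.

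**Figure D2:**
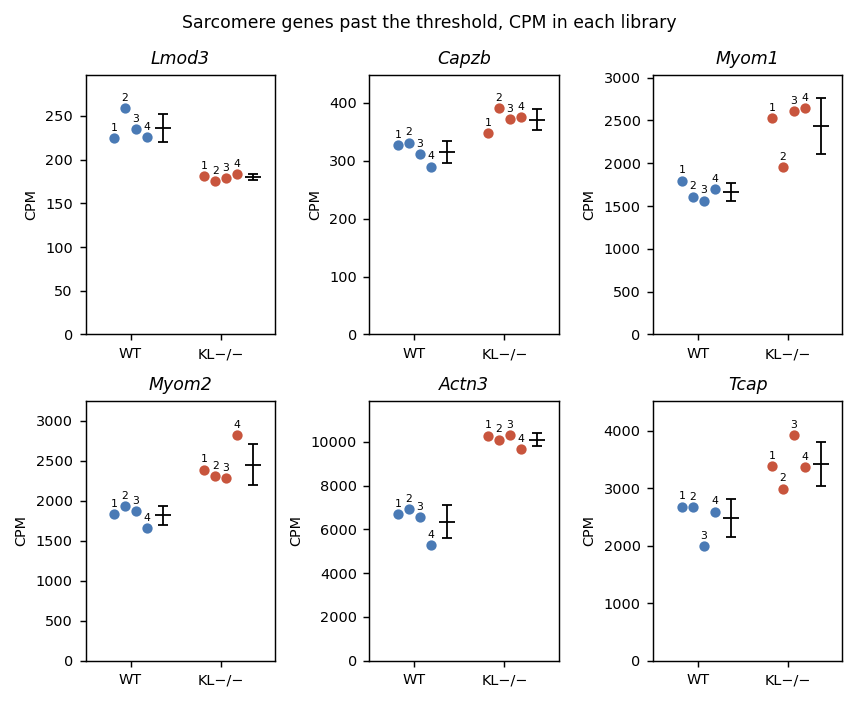
Points give CPM in each library, numbered by replicate, for the 6 sarcomere genes with an FDR under 0.05, and bars give the mean ± SD (n = 4 per genotype). With TMM scaling the genotypes do not overlap in any panel: *Lmod3* is lower in KL-/- muscle, at 175 to 183 against 225 to 258 CPM, and the other 5 genes are higher. As shares of library totals, *Capzb* overlapped.

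Among the proteins at the ends of the thin filament, 1 of 6 genes was lower and 1 was higher. Each is 16.7% of this group, where 6.67% of all genes were lower and 7.35% higher. *Lmod3* (chromosome 6, 97238528 to 97252780) encodes leiomodin-3, which nucleates actin and acts at the pointed end of the thin filament. It was at 225, 258, 235 and 226 CPM in WT and at 181, 175, 179 and 183 CPM in KL-/-. The KL-/- values stood close together and all lay below WT. The log2 fold change was −0.40 (SE 0.060, FDR = 0.00583, edgeR), or 24.0% less transcript, and *Lmod3* passed in each of the 8 fits without 1 library. *Capzb* (chromosome 4, 139192899 to 139291820) encodes the beta subunit of the barbed-end capping protein CapZ. It was at 327, 331, 312 and 290 CPM in WT and at 347, 390, 371 and 375 CPM in KL-/-. Here the gap between genotypes was small against the range within them, the log2 fold change was 0.24 (SE 0.065, FDR = 0.0401, edgeR), and *Capzb* did not pass in 6 of the 8 fits without 1 library. *Capza2*, the alpha subunit of the same dimer, had a log2 fold change of 0.10 and overlapped.

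The tropomodulins, which cap the pointed end, did not pass. *Tmod1* averaged 370 ± 35.2 CPM in WT against 392 ± 50.9 CPM in KL-/- (SD, n = 4), and *Tmod4*, the tropomodulin of skeletal muscle, at 379 ± 24.7 and 410 ± 11.1 CPM. Both overlapped between genotypes. *Lmod2*, the second leiomodin, was at 153, 173, 133 and 171 CPM in WT and at 316, 80.5, 377 and 209 CPM in KL-/-. As with *Actn2*, replicates 1, 3 and 4 were above all WT mice and replicate 2 below them. The log2 fold change of 0.64 (SE 0.37, FDR = 0.257, edgeR) did not pass with all libraries, and without replicate 2 it was 0.94 (edgeR FDR = 0.00967). Without replicate 3 it was 0.36 (edgeR FDR = 0.565).

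No gene of the thin filament itself passed, and the 8 genes had a median log2 fold change of 0.18. *Tnni2* was at 6568, 6654, 5931 and 6105 CPM in WT and at 6730, 7744, 7632 and 7667 CPM in KL-/-. The genotypes did not overlap, though KL-/- replicate 1 was close to the WT range, and the log2 fold change was 0.24 (SE 0.11, FDR = 0.155, edgeR). *Tnnt3*, *Tpm1* and *Tnnc2* had log2 fold changes of 0.27, 0.31 and 0.11 with SEs of 0.14, 0.16 and 0.12, and in each the genotypes overlapped. *Neb*, named after its values were seen, encodes nebulin, which runs along the thin filament. It was at 9449, 9020, 9293 and 10203 CPM in WT and at 12684, 12573, 11143 and 10939 CPM in KL-/-, without overlap, and its log2 fold change of 0.32 (SE 0.12) had an FDR of 0.104 (edgeR). *Tpm2*, which encodes beta-tropomyosin, overlapped at 0.11. *Acta1* averaged 30773 ± 2464 CPM in WT against 32075 ± 3724 CPM in KL-/- (SD, n = 4), and the 95% interval of its log2 fold change ran from −0.33 to 0.45.

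No thick filament gene passed either, and the 6 genes had a median log2 fold change of 0.15. *Mybpc2*, fast myosin-binding protein C, was at 4113, 4509, 4586 and 3548 CPM in WT and at 4637, 6829, 5034 and 4916 CPM in KL-/-. The lowest KL-/- mouse stood just above the highest WT mouse, replicate 2 stood apart at the top, and the log2 fold change was 0.35 (SE 0.15, FDR = 0.131, edgeR). *Mybpc1*, the slow myosin-binding protein C that is also made in fast fibres, averaged 3127 ± 111 CPM in WT against 3144 ± 588 CPM in KL-/- (SD, n = 4). The light chains *Mylpf* and *Myl1* had log2 fold changes of 0.25 and −0.063 with SEs of 0.21 each, which leaves room for differences of either sign. *Mylk2*, the skeletal muscle kinase of the regulatory light chain, had a log2 fold change of 0.046 and overlapped.

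Outside the filaments, none of the 8 remaining genes passed. *Ckm* was at 20721, 21252, 19432 and 16755 CPM in WT and at 21495, 26256, 21717 and 23490 CPM in KL-/-. Every KL-/- mouse was above every WT mouse, by little in replicates 1 and 3, and the log2 fold change was 0.25 (SE 0.16, FDR = 0.30, edgeR). *Ckmt2*, named after its values were seen, encodes the mitochondrial creatine kinase that supplies the same phosphocreatine system. It was at 2798, 2859, 2861 and 3104 CPM in WT and at 2224, 1568, 2367 and 2438 CPM in KL-/-. Here every KL-/- mouse was below every WT mouse, and the log2 fold change of −0.44 (SE 0.14) had an FDR of 0.0602 (edgeR). The myosin chaperone genes *Smyd1* and *Unc45b* had log2 fold changes of −0.17 and −0.10. *Smyd1* averaged 742 ± 28.0 CPM in WT against 659 ± 59.8 CPM in KL-/- (SD, n = 4), with overlap (edgeR FDR = 0.155). Of the genes for lateral links and force-bearing fibre ends, the intermediate filament gene *Des* was at 2688, 2662, 2595 and 2744 CPM in WT and at 3525, 2575, 4093 and 3512 CPM in KL-/-. It is named after its values were seen, and replicate 2 alone kept its genotypes from separating. *Smpx*, *Xirp1* and *Xirp2* had log2 fold changes of 0.017, 0.38 and −0.13 and overlapped.

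**Figure D3:**
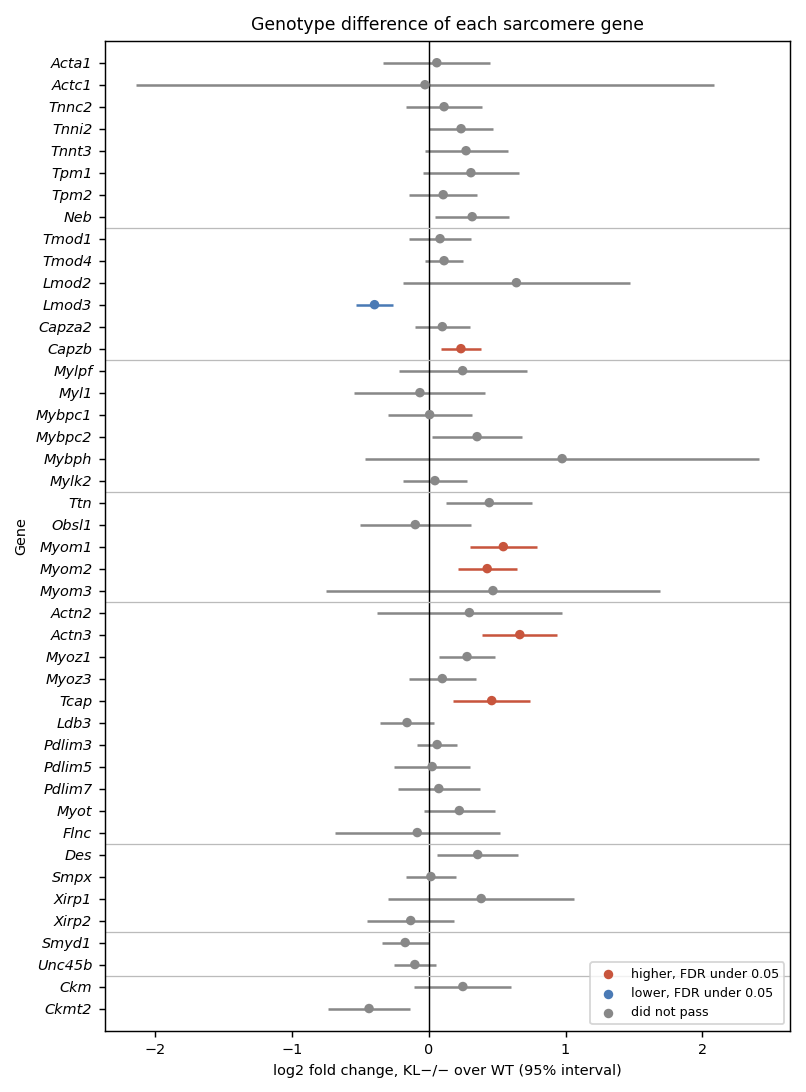
Points give the log2 fold change (KL-/- over WT, TMM scaling) of each of the 44 sarcomere genes and lines its 95% interval, with red for higher, blue for lower and grey for genes that did not pass an FDR of 0.05. Most points lie between −0.2 and 0.5, and the widest intervals belong to *Actc1*, *Mybph* and *Myom3*.

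Some sarcomere genes varied far more between mice of a genotype than between genotypes. In WT mice the median coefficient of variation of the 44 genes was 8.54%, against 9.85% for all genes, and 28 of 44 were below 10%. In KL-/- mice it was 13.0%, against 11.1% for all genes. *Actc1* stood out from these. It was at 713, 1618, 1724 and 134 CPM in WT and at 181, 3119, 269 and 546 CPM in KL-/-, so that the highest and lowest library differed 23.3-fold. Both genotypes held high and low mice, and the log2 fold change of −0.026 had an SE of 0.94. *Mybph*, which encodes myosin-binding protein H and is named after its values were seen, was at 44.5, 76.5, 151 and 11.8 CPM in WT and at 106, 261, 70.2 and 119 CPM in KL-/-, a 22.2-fold range. WT replicate 4 was the lowest and KL-/- replicate 2 the highest library for both genes. The 3 libraries with the most *Actc1* transcript also had the highest summed fibroblast markers, at 3631 CPM in WT replicate 2, 3746 in WT replicate 3 and 1680 in KL-/- replicate 2, against 509 to 1629 CPM in the other 5. The part of this in *Actc1* was not tested.

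KL-/- replicate 2 was the extreme mouse of its genotype in 36 of the 44 genes (81.8%), 21 times as the highest and 15 times as the lowest, where 62.9% of all genes had it at an end. It was highest among KL-/- mice in the fast troponins, the light chains, *Mybpc2*, *Tpm1* and *Ckm*. *Myl1* showed this clearly, with 13715 CPM in replicate 2 against 7496, 7887 and 8176 CPM in the others. It was lowest in *Actn2*, *Lmod2*, *Myom3*, *Mybpc1*, *Des*, *Flnc*, *Xirp1* and *Ckmt2*. The myosin heavy chain genes of these libraries moved alongside. *Myh2*, the type IIa heavy chain, was at 292 CPM in KL-/- replicate 2 and at 5252, 5441 and 3445 CPM in replicates 1, 3 and 4, while *Myh4*, the type IIb heavy chain, was at 62798 CPM in replicate 2 and at 42976, 45341 and 43066 CPM in the others. In WT mice *Myh2* was at 1170, 1662, 2486 and 4436 CPM and *Myh4* at 35450, 35685, 37575 and 32439 CPM in replicates 1 to 4. *Myom3*, named after its values were seen, was at 17.6, 27.6, 34.6 and 77.6 CPM in WT mice and at 70.4, 13.7, 84.6 and 49.5 CPM in KL-/- mice. The libraries had the same order for *Myom3* as for *Myh2* within each genotype, whereas *Actn2* had that order in WT mice but not between KL-/- replicates 1 and 3, and *Lmod2* and *Des* did not have it in WT mice. The part of fibre type in the genotype differences was not tested. Without KL-/- replicate 2, 10 sarcomere genes were higher and 3 lower at an FDR under 0.05 (edgeR), and *Actn3*, *Myom1*, *Myom2*, *Tcap*, *Capzb* and *Lmod3* were among them. In that fit 22% of all genes passed, against 14.0% with all libraries.

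**Figure D4:**
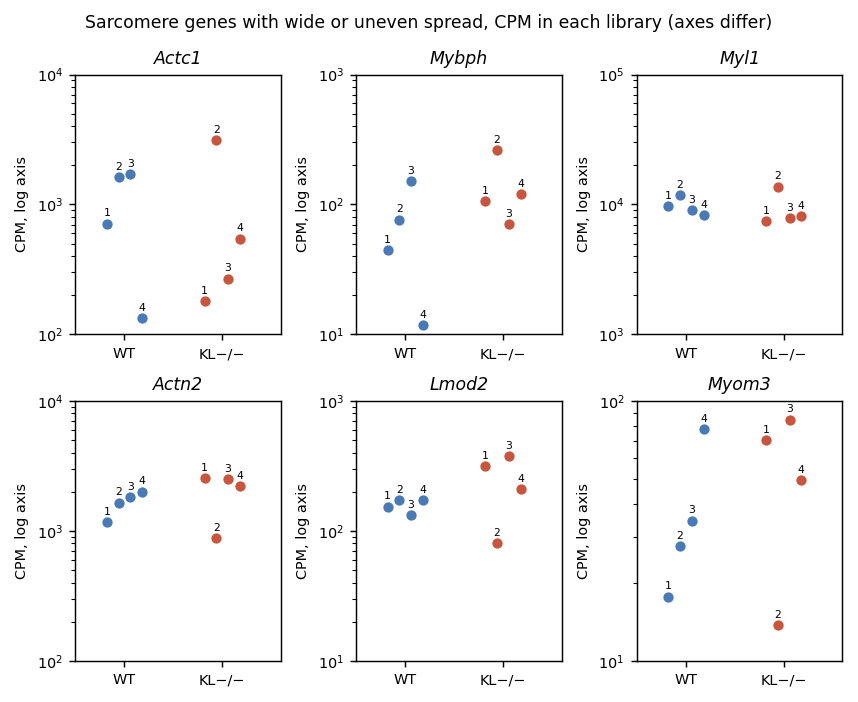
Points give CPM on log axes in each library, numbered by replicate, for 6 sarcomere genes with a wide or uneven spread. *Actc1* spans 134 to 3119 CPM with both genotypes mixed, and KL-/- replicate 2 is the highest KL-/- library in *Actc1*, *Mybph* and *Myl1* and the lowest in *Actn2*, *Lmod2* and *Myom3*.

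Because a ratio of related genes within a library does not depend on scaling between libraries, 8 pairs were compared as log2 ratios of counts per kilobase with two-sided exact permutation tests, in which 4 against 4 mice cannot give a p below 0.0286. None of the 8 pairs separated the genotypes, with exact p from 0.143 to 0.771 and Benjamini-Hochberg adjusted values from 0.571 to 0.771. Skeletal actin far outweighed cardiac actin: the ratio of *Actc1* to *Acta1* was 0.027, 0.056, 0.059 and 0.0055 in WT and 0.0073, 0.095, 0.0098 and 0.019 in KL-/- mice. The log2 ratio of *Actn2* to *Actn3* was −2.57, −2.12, −1.90 and −1.45 in WT and −2.06, −3.57, −2.09 and −2.18 in KL-/-. Replicate 2 lay far below and the other 3 KL-/- mice within the WT range, and the mean difference was −0.46 (exact permutation p = 0.371). For *Myom1* to *Myom2*, both higher in KL-/- muscle, the mean log2 ratio was −0.31 ± 0.15 in WT and −0.20 ± 0.19 in KL-/- (SD, n = 4; exact permutation p = 0.429). The balance of the leiomodins had the largest difference of means among the pairs, 0.83. The log2 ratio of *Lmod2* to *Lmod3* was −0.36, −0.39, −0.64 and −0.21 in WT and 1.00, −0.93, 1.26 and 0.38 in KL-/- (exact permutation p = 0.143). In 3 of 4 KL-/- mice *Lmod2* exceeded *Lmod3* per kilobase, in replicate 2 and in every WT mouse it did not. Without that mouse the difference was 1.28 and the exact p was 0.0286, the smallest the test can give. The same holds for *Myoz3* to *Myoz1*, at −0.20 with all mice (exact permutation p = 0.200) and −0.29 without replicate 2 (p = 0.0286). The other pairs, *Mybpc1* to *Mybpc2*, *Tmod1* to *Tmod4* and *Xirp1* to *Xirp2*, had differences of −0.36, −0.035 and 0.42.

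**Figure D5:**
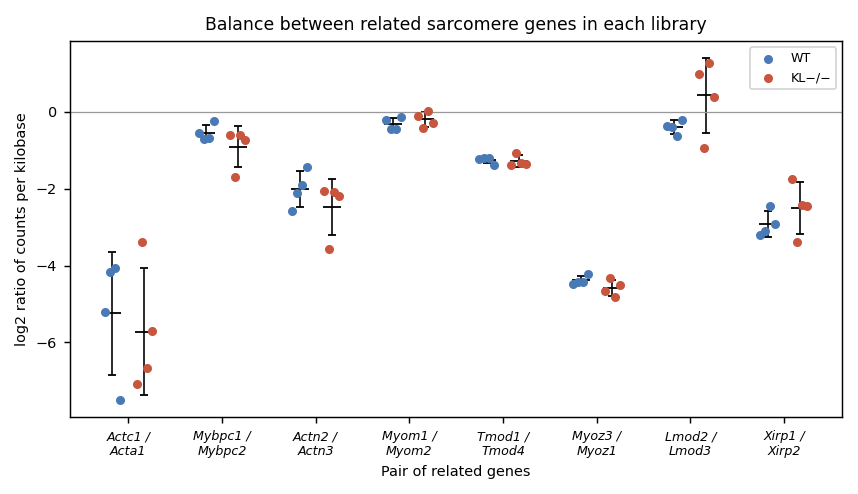
Points give the log2 ratio of counts per kilobase between related sarcomere genes in each library (blue WT, red KL-/-), and bars give the mean ± SD (n = 4). The genotypes overlap in all 8 pairs, and 3 of 4 KL-/- libraries lie above 0 for *Lmod2* to *Lmod3*, where all WT libraries lie below it.

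For comparison, 38 of 40 other sarcomere-associated genes (signalling, scaffold, chaperone and turnover proteins) were in the table, with a median log2 fold change of 0.011. Of these, 2 were higher (5.26%, against 7.35% of all genes) and 5 lower (13.2%, against 6.67%). The higher genes were *Dmd*, which encodes dystrophin (log2 fold change 0.39, FDR = 0.00733, edgeR), and *Mypn*, the Z-disc protein myopalladin (0.33, FDR = 0.0234, edgeR). Among the lower genes, *Smtnl2* fell most, with 415 ± 24.7 CPM in WT against 172 ± 31.8 CPM in KL-/- (SD, n = 4; log2 fold change −1.27, FDR = 0.00148, edgeR). *Klhl40*, whose product binds and stabilizes leiomodin-3 and nebulin, was lower too, with a log2 fold change of −0.32 (FDR = 0.0253, edgeR). The LIM protein gene *Fhl3* and the actin-assembling formins *Fhod1* and *Fhod3* were also lower, with log2 fold changes of −0.56, −0.31 and −0.37. Of 8 slow fibre genes, 3 (37.5%) were higher (*Tnnc1*, *Tnni1* and *Tnnt1*) with means under 9 CPM in both genotypes, and the median was 0.98. The genotypes overlapped in *Tnni1*. *Myl3*, at means of 90.4 CPM in WT and 70.8 CPM in KL-/-, went the other way (log2 fold change −0.35, FDR = 0.385, edgeR). The summed slow fibre genes overlapped, at 172 to 322 CPM in WT and 154 to 419 CPM in KL-/-. None of the 3 fast myosin heavy chain genes passed, although every KL-/- library lay above every WT library in *Myh4* (log2 fold change 0.46, FDR = 0.155, edgeR) and in the sum of the 3 genes, at 54200 to 59700 CPM in WT and 61900 to 74300 CPM in KL-/-.

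Markers of other cell types also differed, and they are given because the muscles were sequenced whole. Beside the counts below, 7.35% of all genes were higher and 6.67% lower. Summed tendon markers were 179 to 223 CPM in WT and 54.8 to 141 CPM in KL-/-, with 2 of 4 genes lower. Of these 4 genes, 1 had a positive log2 fold change, 0.16. Summed endothelial markers were 369 to 556 and 332 to 366 CPM, with 1 of 5 lower. Fibroblast markers were 915 to 3750 and 509 to 1680 CPM, with 3 of 7 lower, and macrophage markers 24.1 to 52.6 and 12.4 to 27.4 CPM, with 2 of 6 lower, and both sums overlapped between genotypes. Summed Schwann cell markers were higher, at 30.1 to 55.6 and 61.3 to 79.4 CPM. Of these 4 genes 2 were higher, and 1 had a negative log2 fold change, −0.23. The sum of 3 adipocyte markers of 4 listed was higher too, at 184 to 212 and 214 to 279 CPM (1 of 3). The sums of smooth muscle markers, with 1 of 5 higher, and of satellite cell markers, with none of 4 called, overlapped as well. Of the heart markers only *Myh6* was in the table, at 2.61 to 4.02 and 7.25 to 9.16 CPM, and of the erythroid markers 1 of 5, with overlap. The part of these markers in the values above was not tested.

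The counting did not state its use of strand, so reads of genes on opposite strands cannot be told apart where exons overlap. This concerns 12 of the 44 genes. The shared length was 85.5% of the counted exons in *Tnnc2* (with *Ube2c*), 44.8% in *Tmod1* (with *Tstd2*), 36.2% in *Mybph* (with *Adora1*) and 31.9% in *Ckm* (with an antisense gene), and at most 7.18% with any single gene in the others. None of the 6 genes that passed is among the 12. The 44 genes lie on 16 chromosomes, and the closest pair is *Tnni2* and *Tnnt3*, 54.4 kb apart on chromosome 7.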

How the data were processed

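RNA was sequenced from TA muscles of 4 WT and 4 KL-/- mice. Per the labels and the paper's methods, the authors used STAR with the mm10 genome for alignment and featureCounts for gene counts. The deposited values are whole-number counts without normalization, already limited to 12551 genes. The annotation version and the strand setting are not given in the sources used here, and the labels name total RNA where the methods describe mRNA libraries. All 44 genes and the comparison lists were chosen with earlier results of these data known.

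Genotypes were compared with edgeR 4.0.16 in R 4.3.3 (TMM factors of 0.950 to 1.05, genotype as the only term, quasi-likelihood test, Benjamini-Hochberg adjustment over all genes, threshold 0.05). The edgeR filter on low counts removed no gene. CPM values are TMM-scaled, levels between genes are per kilobase of counted exon (RPKM), and standard errors come from the test statistic. Ratios within a library were taken per kilobase with no added count and were compared by exact permutation over 70 relabelings. Ratios of raw counts with 1 count added to each gene were run as an alternative. Named genes are those past the threshold, the 10 highest per kilobase, the 8 related pairs and *Smyd1*, and others are named after their values were seen. The fit was tested on simulated data. Alternatives were RLE factors, library totals, TMM factors without the 44 genes, a minimum of 10 counts in every library, DESeq2 1.42.0, limma-voom (limma 3.58.1), the likelihood ratio test, the replicate number as a block, a length correction (span 0.3), each library left out, and, chosen after seeing the data, the edgeR 3 form of the test. Sequences are from RefSeq and GENCODE M21. With counts of 20860262 to 29273758 per library, the spread between mice and not counting error limits the precision.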

Additional observations from a re-analysis of the deposited data

Results flagged for a closer look

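In 106 sets of 4 values (a sarcomere gene, a ratio of related genes or a share of counts within a genotype), 8 had a highest or lowest mouse whose distance to the nearest other mouse, relative to the whole range, exceeded Dixon's critical value, where chance gives about 1 in 20 such sets. KL-/- replicate 2 was that mouse in 6 of the 8. It stood above the other KL-/- mice in *Actc1*, at 3119 CPM with the next at 546, and in *Myl1*, at 13715 CPM with the next at 8176. It stood below them in *Myom1*, at 1953 CPM with the next at 2525. In the same mouse the log2 ratio of *Mybpc1* to *Mybpc2* was −1.71 with the next at −0.73, that of *Actn2* to *Actn3* was −3.57 with the next at −2.18, and that of *Tmod1* to *Tmod4* was −1.06 with the next at −1.34. The remaining values were *Tnni2* in KL-/- replicate 1, at 6730 CPM below the next at 7632, and *Tcap* in WT replicate 3, at 1991 CPM below the next at 2597.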

How the results depend on the processing

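*Actn3*, *Myom1* and *Lmod3* kept their direction and passed under every alternative run. *Capzb* did not pass with library totals, the likelihood ratio test or the replicate block (edgeR FDR = 0.164, 0.0633 and 0.103). *Tcap* did not pass with library totals or the block, nor *Myom2* with the block (edgeR FDR = 0.0699, 0.117 and 0.0838). *Ckmt2* passed as lower with library totals, DESeq2, limma-voom and the likelihood ratio test, and *Smyd1* and *Unc45b* with library totals. *Neb* and *Ttn* passed with DESeq2, limma-voom and the likelihood ratio test. The counts of higher and lower sarcomere genes, 5 and 1, were 3 and 4 with library totals, 13 and 2 with DESeq2, 8 and 2 with limma-voom, 6 and 2 with the likelihood ratio test, 7 and 1 with the edgeR 3 form of the quasi-likelihood test (adding *Neb* and *Ttn*), and 2 and 1 with the replicate number as a block, and they ranged from 2 to 10 and from 1 to 3 with 1 library left out. The widest counts, 10 and 3, came without KL-/- replicate 2, and the narrowest, 2 and 1, without WT replicate 3 or KL-/- replicate 4. Without WT replicate 1, 2 or 4 or KL-/- replicate 3, 3 genes were higher. Over all genes, 1759 passed, 671 did with the block, and 762 to 2755 did with 1 library left out, most without KL-/- replicate 2 and fewest without KL-/- replicate 3. As shares of all genes, 20.9% passed with library totals, 19.6% with DESeq2, 14.1% with limma-voom and 16.9% with the likelihood ratio test. The share was 13.7% with the edgeR 3 form and 5.35% with the block, against 14.0% in the main fit. With 1 library left out it was 6.07% to 22%. Same-numbered mice did not deviate together (correlations of −0.15, 0.18, −0.37 and 0.017, with 1 of 4 WT mice closest to its own number), so the block pairs mice by number alone. The cause of these changes was not tested.

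Direction turned, with values that passed in neither fit, with library totals in *Acta1* (−0.060), *Tnnc2* (−0.0061), *Tpm2* (−0.013), *Tmod1* (−0.035), *Tmod4* (−0.0045), *Capza2* (−0.018), *Mybpc1* (−0.11), *Mylk2* (−0.072), *Myoz3* (−0.019), *Pdlim3* (−0.057), *Pdlim5* (−0.092), *Pdlim7* (−0.045) and *Smpx* (−0.10), and in *Mybpc1* with limma-voom (−0.015) and the replicate block (−0.013). With 1 library left out it turned in *Acta1* (−0.0063 to 0.13), *Actc1* (−1.65 to 0.33), *Tmod1* (−0.0018 to 0.14), *Myl1* (−0.30 to 0.040), *Mybpc1* (−0.072 to 0.14), *Mylk2* (−0.012 to 0.11), *Obsl1* (−0.25 to 0.033), *Pdlim5* (−0.052 to 0.14), *Pdlim7* (−0.054 to 0.17), *Flnc* (−0.22 to 0.13) and *Smpx* (−0.034 to 0.087).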
